A study of Mus musculus with 53 samples.

Results

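The genes described here encode the enzymes, regulators and a carrier of cholesterol and fatty acid synthesis, measured in the lungs of mice that breathed cigarette smoke or air. They were chosen by name, as 35 genes annotated on the array, and each is represented by its brightest probe set. They make up 35 of the 15030 genes tested, of which 17 are enzymes of the sterol branch, 5 are regulators or carriers of sterol and 13 belong to the fatty acid branch. Detection was complete: all 35 were called present on all 53 arrays.

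The study profiled small-lobe lung tissue from female C57BL/6 mice bought from the Jackson Laboratory, with 1 Affymetrix array per sample and 53 arrays in 9 groups. Smoke mice were exposed nose-only to 4% mainstream cigarette smoke in sessions of 2 hours, 5 days each week, over 2 weeks (n = 6), 12 weeks (n = 5) or 24 weeks (n = 6), and sham mice, labelled forced air, breathed air on the same schedule for 2, 12 or 24 weeks (n = 6 each). The 2 cessation groups breathed smoke for 12 weeks and then had 12 weeks without it, 6 labelled smoke to forced air and another 6 smoke to room air, and 6 untreated mice were labelled with time 0. The labels do not say whether the room-air mice were placed in the exposure apparatus during the last 12 weeks, and they give exposure times but not the ages of the mice. No mouse carried a transgene or deletion in the labels. The alveolar type 2 cell transcript Sftpc had signals between 2529 and 4918 over all arrays. Whole tissue was measured, so fewer cells of a type and less RNA per cell cannot be told apart. Samples are taken as separate mice, and the p-values measure the spread between these samples.

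Cholesterol is built from acetyl-CoA through mevalonate, isoprenoid units, squalene and lanosterol, and fatty acids are built from the same acetyl-CoA through malonyl-CoA. Both routes are controlled by the sterol regulatory element-binding proteins (SREBPs), membrane-bound transcription factors that SCAP escorts out of the endoplasmic reticulum when membrane sterol is low and that INSIG proteins hold back when it is high. SREBP-2, encoded by Srebf2, acts mainly on the sterol enzymes, and the SREBP-1c form of Srebf1 mainly on fatty acid synthesis. In the lung, alveolar type 2 cells use both routes to make the lipids of pulmonary surfactant, and alveolar macrophages take surfactant lipid up and break it down.

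Promoter sequence was available for 28 of the 35 genes, from RefSeq on the mouse build GRCm38.p6, as 300 bases running from 250 before the annotated start to 50 after it. Stard4, Scd2, Sqle, Fdps, Fdft1, Fads1 and Scd1 were not matched. The letters CCAAT, the box bound by NF-Y, a known partner of SREBPs, occurred on either strand in the promoters of 14 of 14 matched sterol-branch genes, 3 of 4 matched regulators and 7 of 10 matched fatty acid genes, against 41.1% of all 27025 genes with a promoter in the table. Each gene is counted once, over all of its promoters. The sterol regulatory element, searched as TCACNCCAC on both strands, was found in 1 of the 28 genes, Hmgcs1, and in 1.44% of all genes. The E-box CACGTG occurred in 3 of 14 sterol-branch genes, 2 of 4 regulators and 1 of 10 fatty acid genes, against 8.09% of all genes. These are matches of letters in a fixed window, and no binding was measured.

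4 promoters are printed, from the enzyme at the head of the sterol branch (Hmgcs1), 2 sterol enzymes that changed in the comparisons below (Cyp51 and Mvd) and the central fatty acid enzyme (Fasn). They lie at chr13:119690101-119690400 on the plus strand, chr5:4104648-4104947 on the minus strand, chr8:122443373-122443672 on the minus strand and chr11:120824498-120824797 on the minus strand. Each is given 5′ to 3′ on the strand of its gene, and capitals mark the CCAAT box in either orientation and, in Hmgcs1, the sterol regulatory element. In Fasn the last 2 of 3 boxes share bases.
Hmgcs1: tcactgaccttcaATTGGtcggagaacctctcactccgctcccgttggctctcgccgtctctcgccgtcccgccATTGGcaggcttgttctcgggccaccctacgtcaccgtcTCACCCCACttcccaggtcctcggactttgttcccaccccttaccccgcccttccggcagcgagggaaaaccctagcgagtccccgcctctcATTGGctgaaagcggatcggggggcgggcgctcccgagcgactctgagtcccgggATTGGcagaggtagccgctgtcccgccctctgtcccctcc
Cyp51: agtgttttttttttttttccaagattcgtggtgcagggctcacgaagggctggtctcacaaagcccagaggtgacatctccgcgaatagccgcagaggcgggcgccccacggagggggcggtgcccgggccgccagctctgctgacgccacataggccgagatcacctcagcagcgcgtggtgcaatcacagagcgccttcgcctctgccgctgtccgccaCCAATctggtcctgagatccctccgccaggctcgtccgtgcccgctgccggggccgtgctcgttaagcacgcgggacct
Mvd: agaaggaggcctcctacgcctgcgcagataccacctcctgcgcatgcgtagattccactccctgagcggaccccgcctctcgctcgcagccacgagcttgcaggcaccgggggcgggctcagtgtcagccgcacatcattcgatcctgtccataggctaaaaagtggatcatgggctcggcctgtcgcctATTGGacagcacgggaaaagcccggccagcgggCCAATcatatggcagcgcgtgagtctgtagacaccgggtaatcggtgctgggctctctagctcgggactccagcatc
Fasn: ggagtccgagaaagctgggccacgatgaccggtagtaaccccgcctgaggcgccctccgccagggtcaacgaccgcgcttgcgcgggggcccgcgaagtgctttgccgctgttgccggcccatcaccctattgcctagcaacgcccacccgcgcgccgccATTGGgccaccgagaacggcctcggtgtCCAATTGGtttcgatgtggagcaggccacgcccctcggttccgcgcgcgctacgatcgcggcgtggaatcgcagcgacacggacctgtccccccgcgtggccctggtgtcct

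Differences are given as log2 changes of the array signal after 16 was added, with their standard error (SE), from limma fitted to all 53 arrays, and a gene is called higher or lower where its p-value, adjusted over all 15030 genes by the Benjamini-Hochberg method, is under 0.05. Signals carry the unit of the authors' scaling, to a trimmed mean of 150 on every array, and signals of different genes come from different probes and are not compared. In the 11 comparisons of groups, 15 of the 17 sterol-branch genes, 4 of the 5 regulators and 4 of the 13 fatty acid genes were called at least once, as were 58.2% of all 15030 genes. Never called with all arrays were Mvk and Nsdhl of the sterol branch and Scap of the regulators. In the fatty acid branch these were Acly, Acaca, Fasn, Scd1, Scd2, Elovl5, Elovl6, Fads1 and Me1. Replicate 4 of the 24-week forced-air group was the highest of all 53 arrays for 6 of the 13 fatty acid genes, Fasn among them. Without that array Fasn was called higher in some smoke and room-air comparisons, as given below. The fatty acid count thus depends in part on that array. Several comparisons share their reference arrays, the 24-week forced-air, 24-week smoke and untreated groups, so their values are set side by side and no overlap between them is counted. The heat map of all members and comparisons shows the changes described below, among them single genes under smoke (Dhcr7, Mvd and Ebp) and 9 sterol enzymes in the room-air group.

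**Figure D1:**
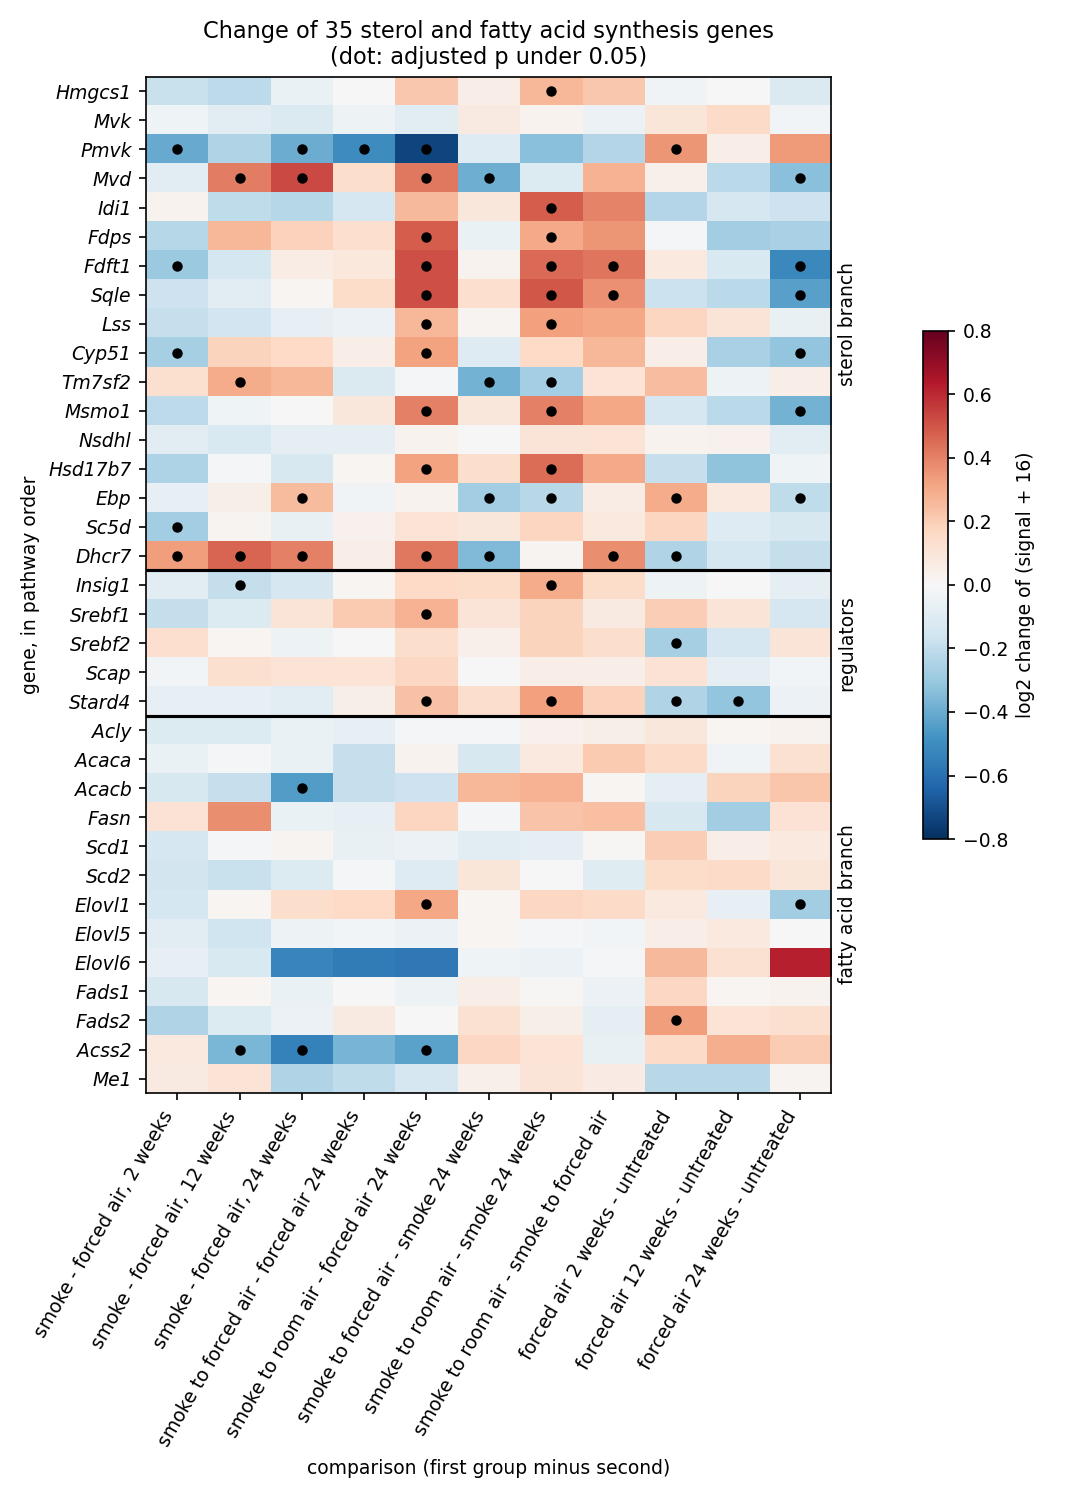
Heat map of the log2 change of each of the 35 genes (rows, ordered by branch and pathway step) in the 11 comparisons of groups (columns), coloured from lower to higher, with a mark where the adjusted p is under 0.05. Dhcr7 is higher in all 3 smoke comparisons, and 9 sterol-branch genes are higher in smoke to room air than in forced air at 24 weeks, while marks are rare in the fatty acid rows.

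Under smoke a few sterol enzymes were called higher than in forced air, 4 were called lower at 2 weeks, and most of the branch had no call. The numbers called higher were not far above the shares of all genes given below, while the 4 of 17 lower at 2 weeks stood beside 3.7% of all genes. Dhcr7, the 7-dehydrocholesterol reductase that makes cholesterol in the last step, was higher with smoke at 2, 12 and 24 weeks. Mvd, which decarboxylates mevalonate diphosphate into the isoprenoid unit, was higher at 12 and 24 weeks, and Ebp, the sterol isomerase of the late steps, was higher at 24 weeks. At 2 weeks, 1 sterol-branch gene was higher and 4 were lower, against 5.39% of all genes called higher and 3.7% lower. At 12 weeks, 3 were higher and none lower, against 12.5% and 10.5% of all genes. At 24 weeks, 3 were higher and 1 lower, against 11.1% and 6.67% of all genes. The median log2 change of the 17 genes was -0.18, -0.04 and 0.00 at the 3 times, beside medians of 0.00, -0.02 and 0.00 over all genes. In limma's test 10, 5 and 5 of the 17 had an unadjusted p under 0.05, beside 3598, 5135 and 4563 of all 15030 genes.

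Dhcr7 had signals of 481 to 572 (median 513) in forced air at 2 weeks and 549 to 791 (median 656) in smoke. At 12 weeks they were 444 to 725 (median 547) in forced air, and the 5 smoke arrays read 741, 854, 822, 750.1 and 729. At 24 weeks they were 481 to 643 (median 513) in forced air and 678 to 742 (median 720.4) in smoke. All smoke arrays at 12 and 24 weeks lay above every matched forced-air array, and at 2 weeks 5 of 6 did. The log2 changes were 0.33 (SE 0.09, adjusted p = 0.00990), 0.47 (SE 0.09, adjusted p = 0.000117) and 0.40 (SE 0.09, adjusted p = 0.000661). Untreated mice read 575 to 701 (median 608), overlapping the forced-air groups of 12 and 24 weeks and the smoke groups of 2 and 24 weeks.

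For Mvd the signals at 2 weeks were 56.2 to 87.1 (median 65.9) in forced air and 53.4 to 65.8 (median 63.4) in smoke, and the groups overlap. At 12 weeks forced-air arrays read 40.7 to 70.0 (median 52.1), and the 5 smoke arrays 72.6, 76.1, 78.3, 63.3 and 92.1. At 24 weeks forced-air arrays read 39.8 to 56.1 (median 49.3) and smoke arrays 60.1 to 93.3 (median 77.7), with every smoke array above every forced-air array. Its log2 change was 0.41, SE 0.10, adjusted p = 0.00276 at 12 weeks and 0.53, SE 0.10, adjusted p = 6.52e-05 at 24 weeks. The change at 24 weeks exceeded that at 2 weeks by 0.62, SE 0.14, adjusted p = 0.00749, in limma's test of the difference between effects. Of all genes, 3.87% had a larger change at 24 than at 2 weeks by that test and 2.57% a smaller one, and 3 sterol-branch genes were among the larger: Mvd, Cyp51 at 0.42 and Ebp at 0.32. The latter 2 calls were lost without any 1 of 6 of the 24 and 5 of the 24 arrays, over differences of 0.37 to 0.48 and 0.27 to 0.35. All 3 genes were called lower in 24-week forced air than in untreated mice, and Ebp higher at 2 weeks, as given below. The forced-air references of these tests thus differed too. Between 12 and 2 weeks, where 1.48% of all genes had a larger change and 0.719% a smaller one, Mvd at 0.50 (SE 0.14, adjusted p = 0.0498) and Cyp51 at 0.45 (SE 0.13, adjusted p = 0.0448) were called larger, and these calls were lost without any 1 of 17 of the 23 and 14 of the 23 arrays respectively. No member passed limma's test between 24 and 12 weeks, as 0.0466% of all genes did. An unadjusted p under 0.05 was reached there by 1 sterol-branch gene, beside 1416 of all 15030 genes.

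Ebp, at 284 to 365 (median 319) in forced air and 349 to 418 (median 379.9) in smoke at 24 weeks, had a change of 0.25 (SE 0.06, adjusted p = 0.00274), and the ranges of the groups overlap. Untreated mice read 337 to 434, a range that takes in every smoke array at 24 weeks. Forced air at 24 weeks was called lower than untreated mice, at -0.20. Tm7sf2, a sterol C14-reductase, was higher at 12 weeks, with forced-air signals of 60.1 to 75.8 (median 68.7) and smoke signals of 98.2, 64.9, 94.0, 89.2 and 94.8. Of those smoke values, 4 exceeded every forced-air value and replicate 2 lay among them. The change of 0.30 (SE 0.10, adjusted p = 0.0297) lost its call without any 1 of 6 of the 11 arrays, over changes of 0.26 to 0.38. At 24 weeks Tm7sf2 was not called, at 0.26, SE 0.10, adjusted p = 0.0528.

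Pmvk, the phosphomevalonate kinase upstream of Mvd, moved the other way, lower with smoke at 2 and 24 weeks. Its signals were 306 to 480.0 (median 374) in forced air and 263 to 309 (median 281) in smoke at 2 weeks, a change of -0.40 (SE 0.13, adjusted p = 0.0420). At 24 weeks they were 289.8 to 442 (median 403) and 248 to 318 (median 274), a change of -0.40 (SE 0.13, adjusted p = 0.0251), with overlap at both times. Both calls were lost without any 1 of 10 of the 12 and 6 of the 12 arrays, over changes of -0.46 to -0.33 and -0.47 to -0.35. At 12 weeks the change was -0.24, SE 0.14, adjusted p = 0.207, and the smoke arrays read 259, 207, 285, 276 and 253 beside 289 to 349 (median 299) in forced air. Untreated mice spanned 196 to 497 (median 279), a range that takes in every array of the 6 smoke and forced-air groups.

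Fdft1 (squalene synthase), Cyp51 (lanosterol 14-alpha-demethylase) and Sc5d (lathosterol oxidase) were also called lower with smoke at 2 weeks, at -0.30 (SE 0.10, adjusted p = 0.0404), -0.27 (SE 0.09, adjusted p = 0.0428) and -0.28 (SE 0.08, adjusted p = 0.0152). Fdft1 had signals of 331 to 478 (median 412) in forced air and 256 to 398 (median 331) in smoke. The calls of Fdft1 and Cyp51 were lost without any 1 of 6 of the 12 and 7 of the 12 arrays, over changes of -0.35 to -0.23 and -0.32 to -0.21, and that of Sc5d without smoke replicate 2, at -0.20. A second probe set of Sc5d had a log2 difference of 0.24, in the other direction, and 1 further probe set of Cyp51 one of 0.05. RNA quality moved with these groups: the 3′/5′ signal ratio of the Gapdh control, which rises as RNA is shortened, ran from 1.61 to 2.08 with forced air and from 1.54 to 1.71 with smoke at 2 weeks, and from 1.58 to 2.42 and 1.48 to 1.54 at 12 weeks. With the Gapdh and actin ratios as covariates, Pmvk, Fdft1 and Cyp51 at 2 weeks and Tm7sf2, Insig1 and Acss2 at 12 weeks were no longer called, while Dhcr7, Mvd and Ebp kept their smoke calls. The test of the difference between times was passed by Cyp51, as above, and not by Fdft1 or Sc5d. With the ratios as covariates in limma, the 24 against 2-week calls of Cyp51 (0.40, adjusted p = 0.0953) and Ebp (0.26, adjusted p = 0.117) were lost. With the mean of its probe sets Cyp51 was not called, at 0.16 (adjusted p = 0.365) for 24 against 2 weeks and 0.26 (adjusted p = 0.216) for 12 against 2 weeks.

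**Figure D2:**
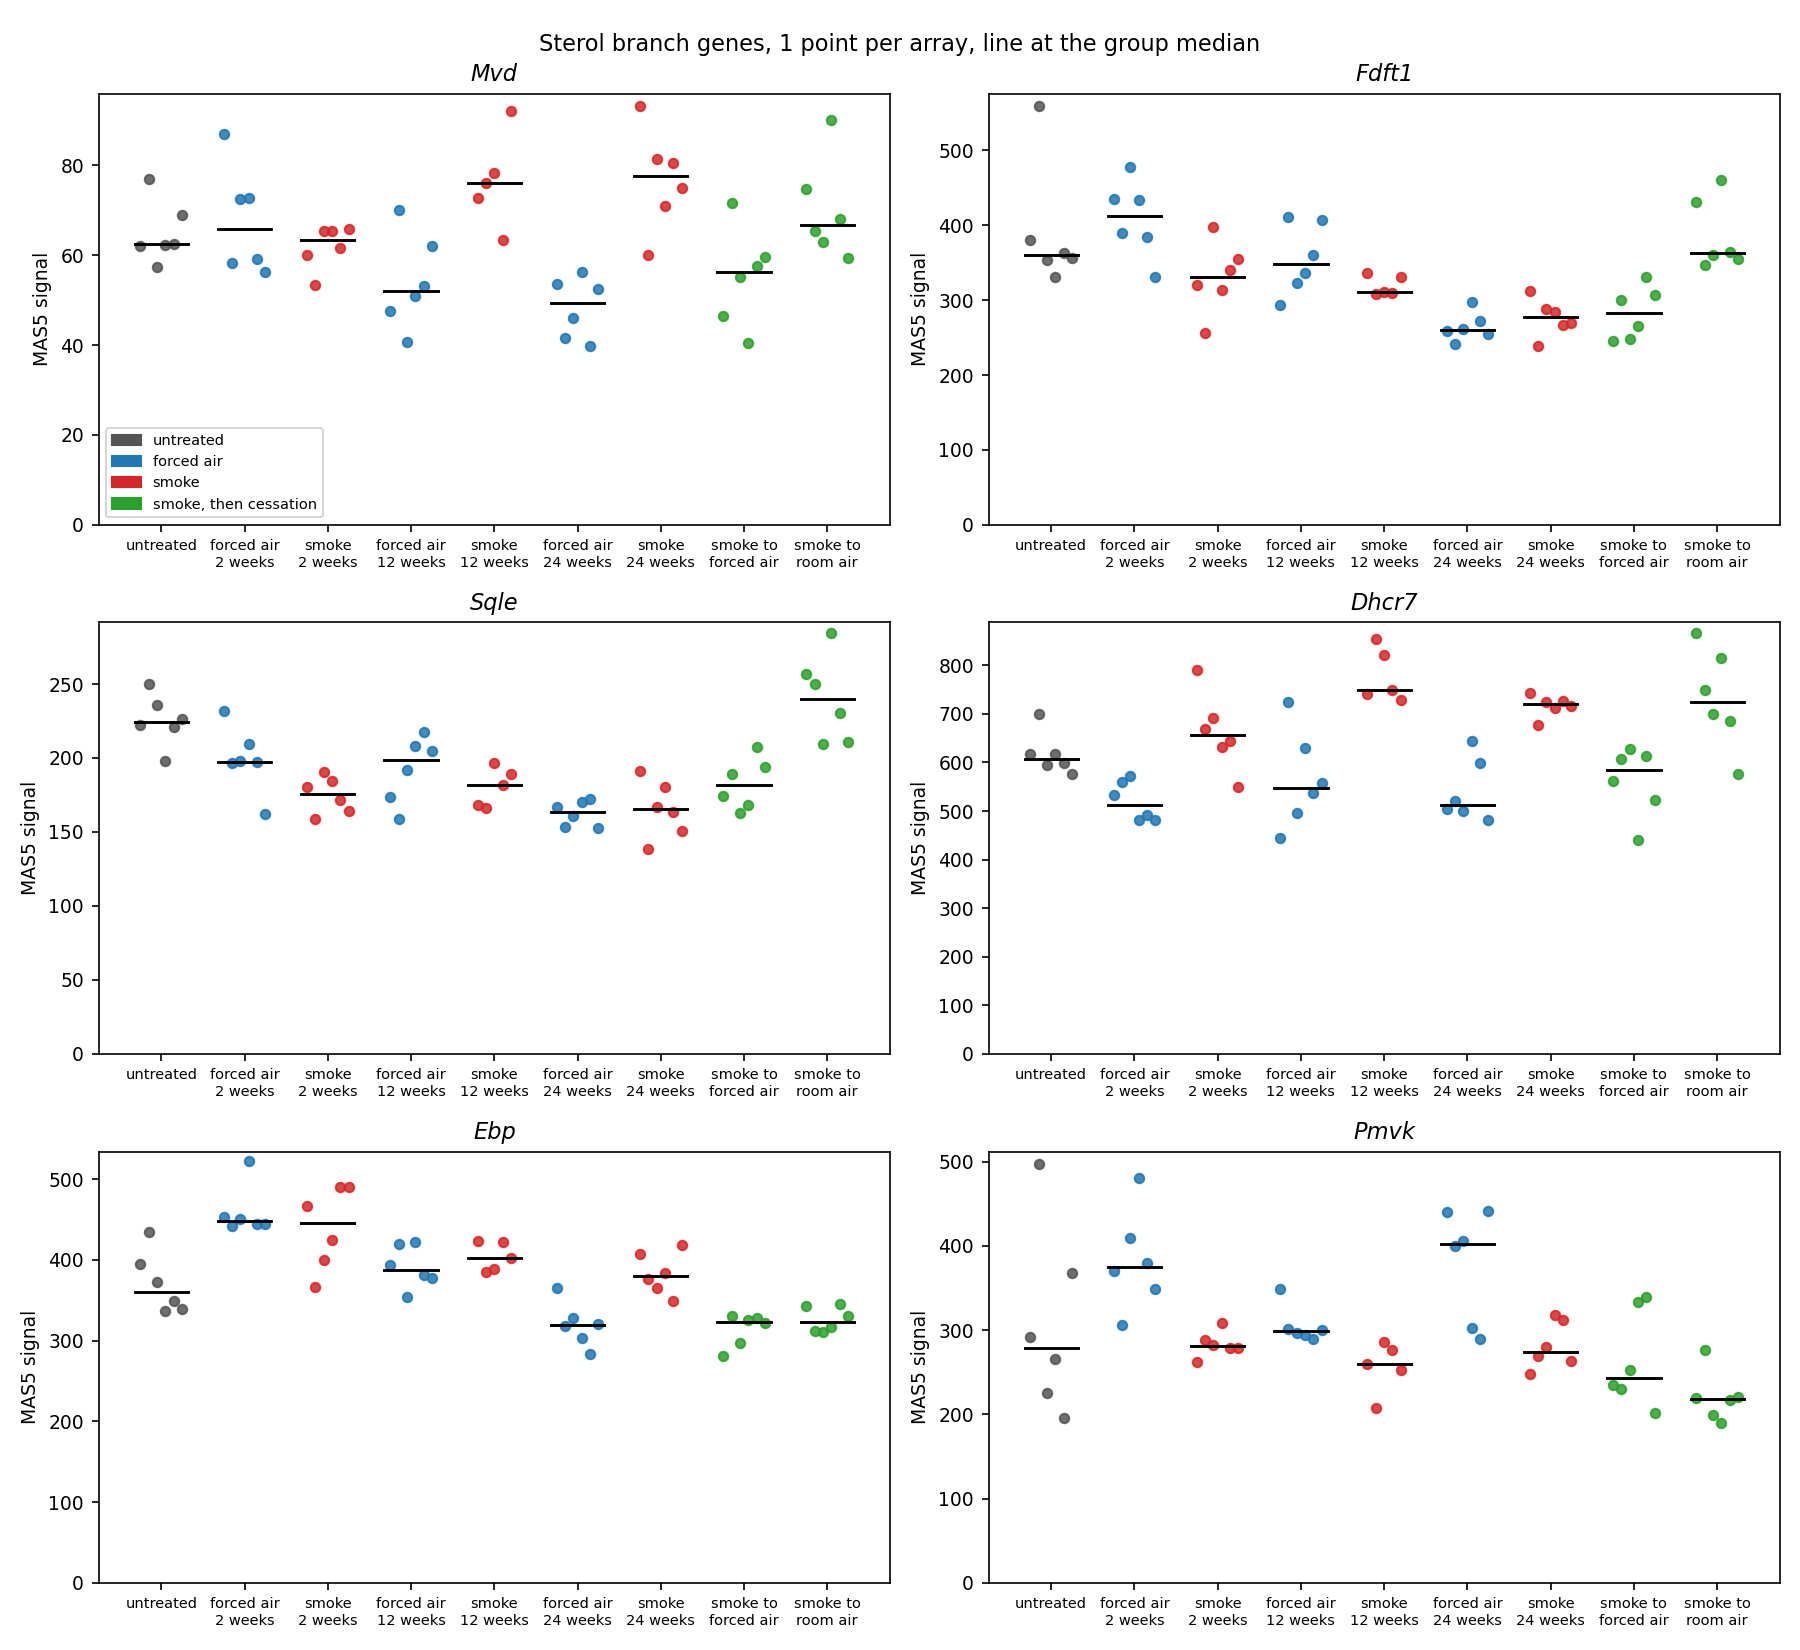
Signal of Mvd, Fdft1, Sqle, Dhcr7, Ebp and Pmvk on every array (points) of the 9 groups, with a line at each group's median and axes that start at 0. In Dhcr7 and Mvd the smoke arrays at 24 weeks all lie above the forced-air arrays, and in Fdft1 and Sqle the 6 room-air arrays all lie above the forced-air arrays at 24 weeks.

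The remaining sterol enzymes, Hmgcs1, Mvk, Idi1, Fdps, Sqle, Lss, Msmo1, Nsdhl and Hsd17b7, were called in none of the 3 smoke comparisons. Hmgcs1, the HMG-CoA synthase at the head of the mevalonate route, had 24-week signals of 1147 to 1634 (median 1372) in forced air and 1174 to 1614 (median 1230.2) in smoke, a change of -0.05, SE 0.08, adjusted p = 0.709. Its change was -0.18 (SE 0.08, adjusted p = 0.183) at 2 weeks, where signals were 1283 to 1723 (median 1408) and 1147 to 1404 (median 1266). At 12 weeks it read 1239.5 to 1855 (median 1432) in forced air and 1219, 1402, 1396, 1152 and 1168 in smoke, at -0.21, SE 0.09, adjusted p = 0.0844. The 2 groups overlap at each time. Sqle, the squalene epoxidase, had 24-week signals of 152.4 to 172 (median 164) and 138.5 to 191 (median 165), a change of 0.01, SE 0.07, adjusted p = 0.918. Msmo1, the methylsterol monooxygenase, read 305 to 443 (median 379.8) and 318 to 449 (median 362), a change of 0.00, SE 0.11, adjusted p = 0.994. The groups overlap for both enzymes. At 2 weeks Msmo1 read 334 to 507 (median 462) and 286 to 447 (median 392) and Sqle 162 to 232 (median 197) and 159 to 190.2 (median 176), log2 changes of -0.21 and -0.17 that did not pass the test.

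Of the regulators, Insig1, which retains the SREBP complex and is itself an SREBP target, was lower with smoke at 12 weeks, and no other regulator was called under smoke. Its signals were 1788 to 2130.1 (median 1984) in forced air and 1682, 1798, 1942, 1559 and 1670.0 in smoke, a change of -0.19 (SE 0.07, adjusted p = 0.0311), lost without any 1 of 6 of the 11 arrays, over changes of -0.23 to -0.15. The ranges of the groups overlap. At 2 and 24 weeks the log2 change of Insig1 was -0.09 and -0.13, neither called. For Srebf2 it was 0.13, 0.02 and -0.04 at the 3 times, for Srebf1 -0.19, -0.11 and 0.10, and for the escort Scap -0.02, 0.13 and 0.11. Stard4, a cytosolic sterol carrier, had values of -0.06, -0.06 and -0.09.

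At 24 weeks the signals of Srebf2 were 411 to 519 (median 438) in forced air and 414 to 472 (median 430.2) in smoke. Srebf1 read 174 to 242 (median 189) and 183 to 230.2 (median 213), and Scap 216 to 279 (median 250.02) and 244 to 304 (median 270.1). The groups overlap for all 3 genes. Related genes of sterol sensing and handling were listed separately, and 12 of 18 were tested. With smoke, 4, 3 and 3 of the 12 were higher and 0, 1 and 1 lower at 2, 12 and 24 weeks. Beside these and the marker counts below, 5.39%, 12.5% and 11.1% of all genes were higher and 3.7%, 10.5% and 6.67% lower. The related genes with the largest changes are named. Ch25h, the cholesterol 25-hydroxylase, changed by 1.41, 1.86 and 1.51 (adjusted p = 1.20e-09 at 24 weeks). Npc1, which moves cholesterol out of lysosomes, changed by 0.33, 0.50 and 0.36, and the sterol exporter Abcg1 by 0.21, 0.41 and 0.31. Markers of alveolar macrophages rose in the same arrays, 5, 6 and 8 of 9 measured markers being higher at the 3 times. At 24 weeks their summed signal ran from 6184 to 6982 under forced air and from 8848 to 11902 under smoke. Markers of dividing cells were higher at all 3 times, 7 of 7 each, while 5, 8 and 1 of 8 endothelial and 4, 5 and 1 of 8 alveolar type 1 markers were lower. Type 2 cell markers, 11 in all, were higher in 0, 2 and 1 cases. The part of these cell types in the changes of Dhcr7, Mvd and Ebp was not tested.

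In the fatty acid branch 2 genes were called under smoke with all arrays, both lower. None of its 13 genes was called at 2 weeks, 1 was lower at 12 weeks and 2 were lower at 24 weeks, against 3.7%, 10.5% and 6.67% of all genes called lower at the 3 times, and the median log2 changes were -0.11, -0.11 and -0.06. At 2 weeks 3 of the 13 had an unadjusted p under 0.05 in limma's test, beside 3598 of all 15030 genes. Acss2, the acetyl-CoA synthetase that feeds acetate into both routes, was lower at 12 and 24 weeks, and Acacb, the mitochondrial acetyl-CoA carboxylase, at 24 weeks.

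Acss2 at 12 weeks read 392 to 531 (median 484) in forced air and 298, 437, 409, 319 and 363 in smoke, a change of -0.37 (SE 0.14, adjusted p = 0.0475) that was lost without any 1 of 7 of the 11 arrays, over changes of -0.43 to -0.30. With log2 Adipoq as a covariate in limma it was -0.25 and not called (adjusted p = 0.163). Summed adipocyte markers ran from 265 to 1855 (median 1240) in forced air and from 313 to 851 (median 407) in smoke at 12 weeks. Their part was not tested. At 24 weeks it read 335 to 967 (median 395) in forced air and 275 to 351 (median 281) in smoke, a change of -0.54, SE 0.13, adjusted p = 0.00215. The groups overlap at both times, with 3 of the 5 smoke arrays at 12 weeks and 4 of the 6 at 24 weeks below every forced-air array, and 1 forced-air array, replicate 4 at 24 weeks, stood far above every other array of the series. Without that array the 24-week change was -0.32, SE 0.09, adjusted p = 0.0114, whereas a fit to the 2 compared groups alone ended the call (adjusted p = 0.0673). The log2 change at 24 weeks minus that at 2 weeks, where it was 0.08, came to -0.61, SE 0.19, adjusted p = 0.0369, and the call was lost without any 1 of 9 of the 24 arrays. Without forced-air replicate 4 this difference was -0.39, SE 0.13, adjusted p = 0.0583.

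Acacb read 128 to 365 (median 151) in forced air and 107 to 147 (median 120.4) in smoke at 24 weeks, a change of -0.45 (SE 0.15, adjusted p = 0.0266), and its other probe set had a log2 difference of 0.008. The highest forced-air value was again replicate 4, and without that array the change was -0.25, SE 0.12, adjusted p = 0.181. The call was also lost without forced-air replicate 6, smoke replicate 2 or smoke replicate 4, over changes of -0.53 to -0.25 among all arrays left out.

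That forced-air array, replicate 4 at 24 weeks, was the highest of all 53 arrays for 6 of the 13 fatty acid genes and for none of the 17 sterol-branch genes or 5 regulators. Fasn, the fatty acid synthase, read 1586 there and 412 to 461 on the other 5 arrays of the group. Elovl6, which extends palmitate, read 614 against 52.7 to 70.3. Me1, the malic enzyme that supplies NADPH, read 1133 against 399 to 491, and Acaca, the cytosolic acetyl-CoA carboxylase, 358 against 100.6 to 176. The adipocyte hormone Adipoq read 1113 on the same array and 12.6 to 265 on the other 52. The summed signal of the 10 adipocyte markers measured was 622 at the lowest, 830 at the median and 5030 at the highest in this group, the highest being this array. The part of adipocyte RNA in these values was not tested. Values without this array are given in the paragraphs on the groups compared with it. The array was singled out after its values for these genes were seen, so the p-values without it are not free of that choice.

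Without it, Fasn became higher with smoke at 24 weeks, where its change went from -0.06 (SE 0.16, adjusted p = 0.850) to 0.25 (SE 0.08, adjusted p = 0.0305). Its forced-air signals were 412 to 1586 (median 442) and its smoke signals 464 to 549 (median 539), so that every smoke array lay above the 5 other forced-air arrays. At 12 weeks Fasn read 347 to 463 (median 422) in forced air and 525, 461, 536, 550.3 and 615 in smoke, where 4 of the 5 smoke values exceeded every forced-air value. That change went from 0.37 (SE 0.16, adjusted p = 0.0964) to 0.37 (SE 0.08, adjusted p = 0.000595), although neither 12-week group holds the array, because the fit pools the spread over groups. At 2 weeks Fasn read 359 to 549 (median 473) and 456 to 552 (median 492.97), with a change of 0.12, SE 0.16, adjusted p = 0.709. Elovl6 had a log2 change of -0.53 at 24 weeks with all arrays and of -0.02 without that array, and was called in neither case. Over all comparisons and tests of differences, the fatty acid branch had 8 calls with all arrays and 13 without this array, 5 of them shared, whereas the sterol branch had 54 in both cases with 53 shared. Not all of the 8 fatty acid calls gained without this array are named here.

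**Figure D3:**
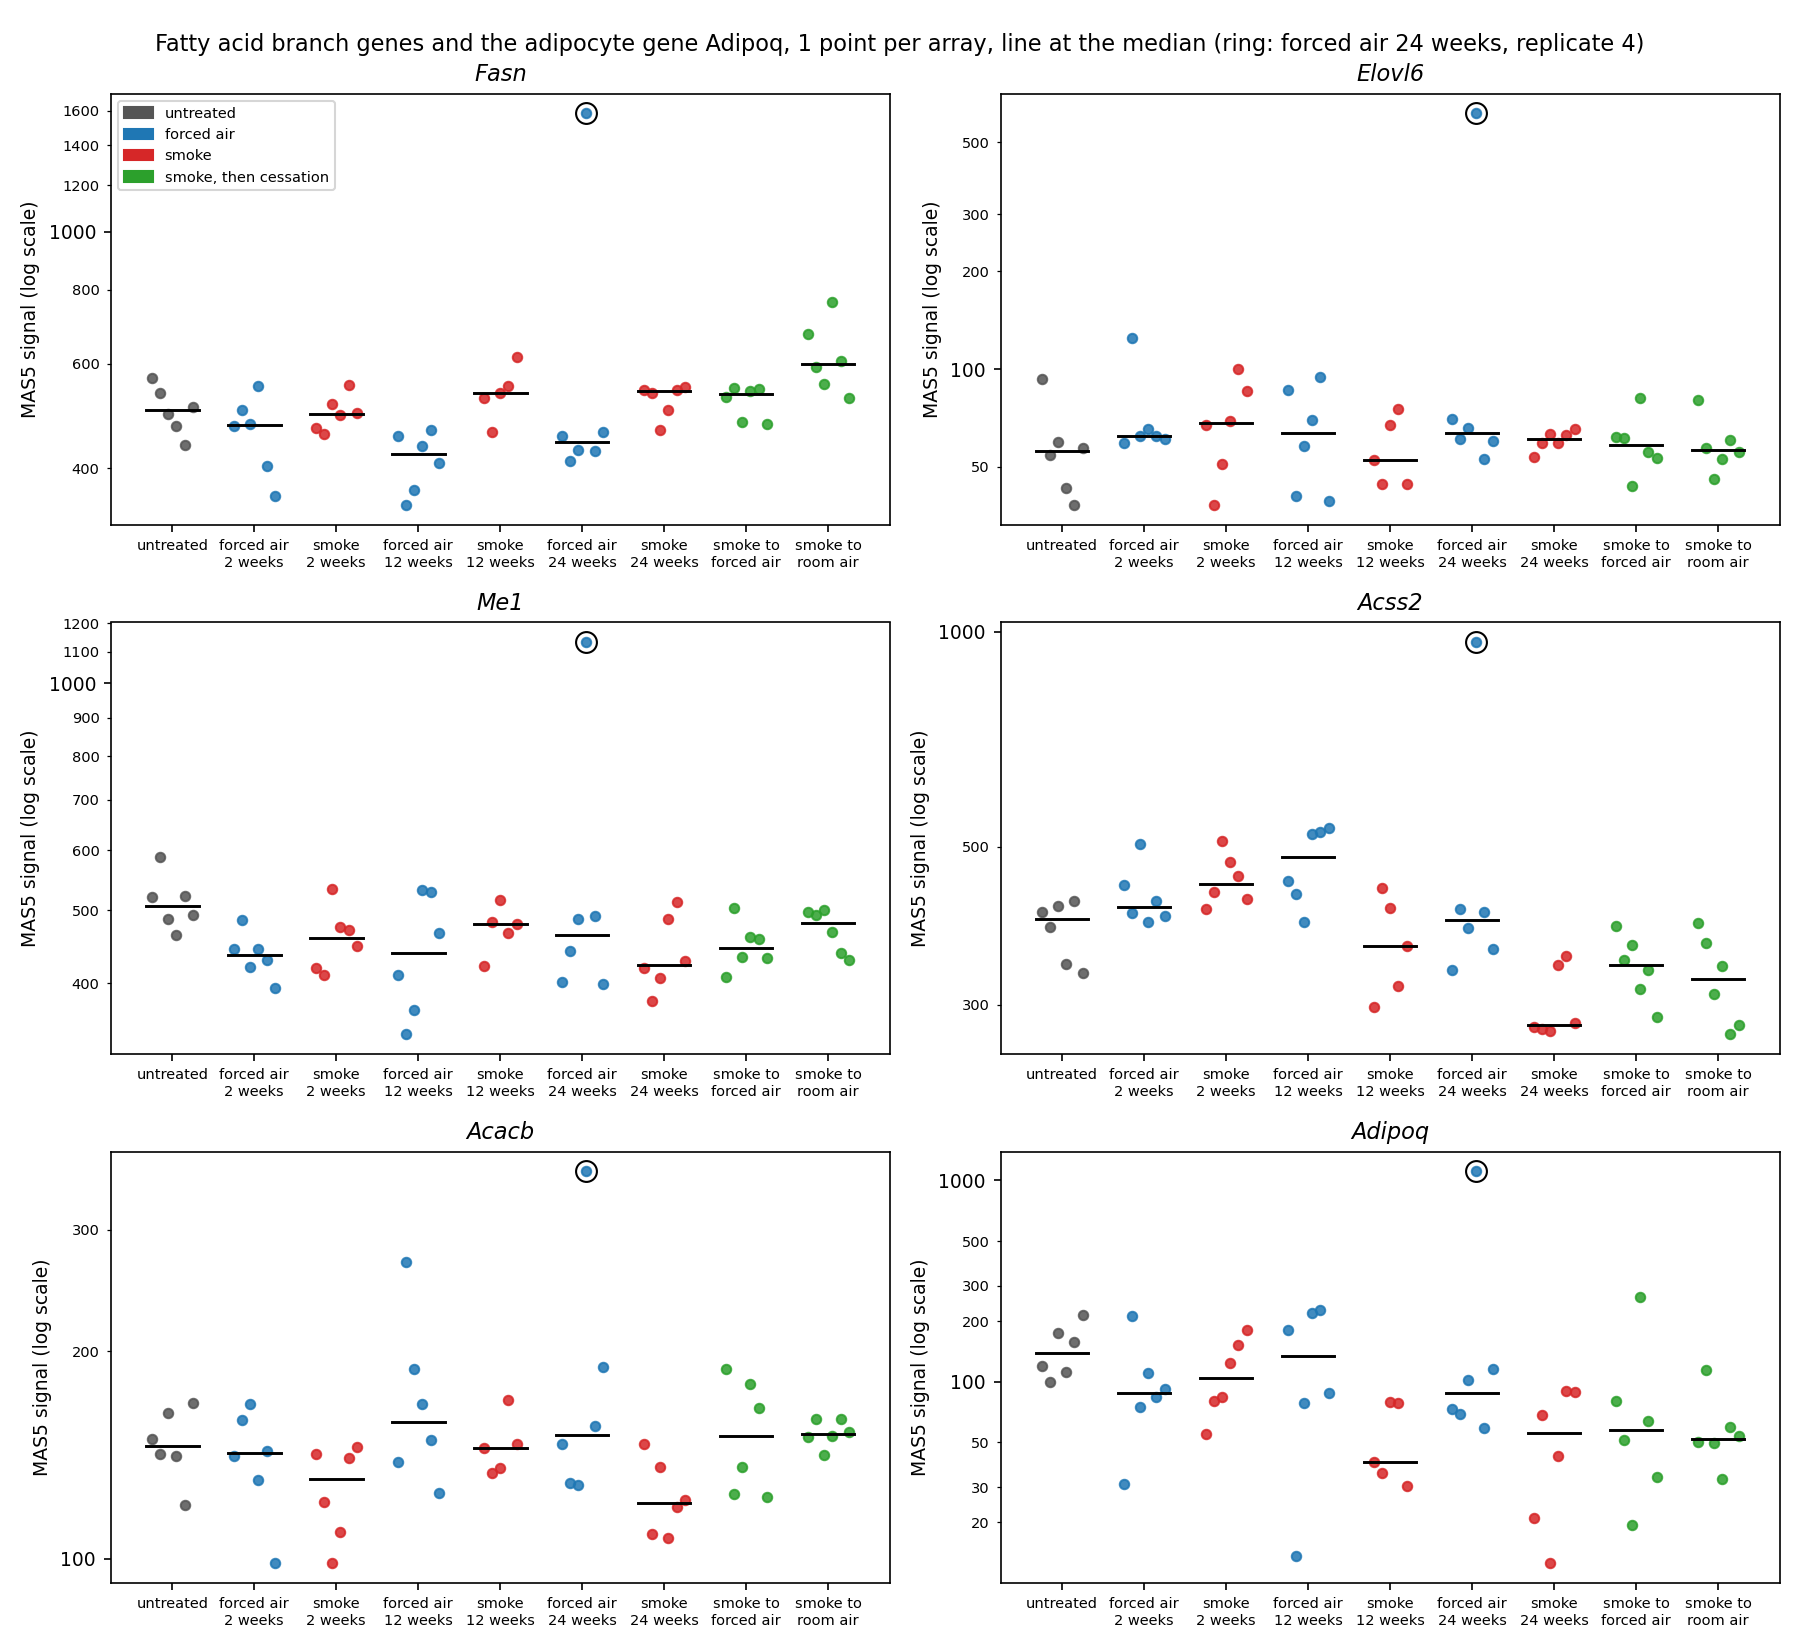
Signal of Fasn, Elovl6, Me1, Acss2, Acacb and the adipocyte marker Adipoq on every array (points, logarithmic axes) of the 9 groups, with a line at each group's median and a ring around forced air replicate 4 at 24 weeks. The ringed array is the highest of all 53 in each panel, at 1586 for Fasn and 1113 for Adipoq.

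Among related fatty acid genes, 16 of 16 tested, 0, 1 and 0 were higher with smoke at 2, 12 and 24 weeks, and 1, 1 and 5 were lower. Of all genes 5.39%, 12.5% and 11.1% were higher and 3.7%, 10.5% and 6.67% lower. The 5 lower at 24 weeks included Thrsp, a lipogenic nuclear protein, at -0.87, Mlxipl, the carbohydrate-responsive transcription factor, at -0.64, and Dgat2, which completes triglyceride synthesis, at -0.63. On forced-air replicate 4 Thrsp read 1207 against 128 to 204 on the other 5 arrays of the group, Mlxipl 151.1 against 17.9 to 28.8, and Dgat2 881 against 238 to 277. Each value of replicate 4 was the highest of all 53 arrays. Without that array none of the 5 calls remained and 1 related gene, Dgat1, was called higher, at 0.22 (adjusted p = 0.0455). Thrsp was then at -0.40 (adjusted p = 0.313), Mlxipl at -0.30 (adjusted p = 0.0637) and Dgat2 at -0.34 (adjusted p = 0.0501). The adipocyte markers Acvr1c and Cidec, 2 of 10, were lower with smoke at 24 weeks, at -0.80 and -0.84 with all arrays and -0.42 and -0.54 without replicate 4, called in both cases.

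After 12 weeks of smoke and 12 weeks in room air, 9 sterol enzymes were higher than in the 24-week forced-air group: Mvd, Fdps, Fdft1, Sqle, Lss, Cyp51, Msmo1, Hsd17b7 and Dhcr7. Of its 17 genes, 9 were called higher and 1 lower, against 9.81% of all genes called higher and 5.31% lower, and 14 of 17 had a change above 0. The median log2 change of the branch was 0.26, beside 0.01 over all genes. The fatty acid branch had 1 gene higher and 1 lower with a median of -0.05, and 2 of 5 regulators were higher.

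Sqle had signals of 152.4 to 172 (median 164) in forced air and 209.8 to 284 (median 240.1) in room air, a 1.43-fold difference (log2 change 0.51, SE 0.07, adjusted p = 2.12e-06). Fdft1 read 241 to 298 (median 260.3) and 347 to 460.0 (median 363), a 1.43-fold difference (log2 change 0.52, SE 0.10, adjusted p = 0.000105). Fdps, the farnesyl diphosphate synthase that precedes squalene synthase, read 175 to 186 (median 183) and 231 to 309.6 (median 257), a 1.40-fold difference (log2 change 0.48, SE 0.10, adjusted p = 0.000599). For these 3 enzymes of the squalene steps every room-air array lay above every forced-air array. Mvd was also separated, at 59.3 to 90.2 (median 66.8) in room air, with a change of 0.42 (SE 0.10, adjusted p = 0.00212), but its other probe set had a log2 difference of -0.02. Msmo1 read 305 to 443 (median 379.8) and 429 to 641 (median 485), ranges that overlap, with a change of 0.41, SE 0.11, adjusted p = 0.00552. Dhcr7 read 576 to 867 (median 724) in room air and changed by 0.42, SE 0.09, adjusted p = 0.000562, with 5 of 6 room-air arrays above all forced-air arrays. Cyp51 changed by 0.32, SE 0.09, adjusted p = 0.00761.

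Lss, the lanosterol synthase, and Hsd17b7, a 3-ketosteroid reductase, were called at 0.26 (SE 0.09, adjusted p = 0.0385) and 0.32 (SE 0.11, adjusted p = 0.0368), and both calls were lost without any 1 of 7 of the 12 and 7 of the 12 arrays, over changes of 0.20 to 0.31 and 0.27 to 0.39. The probe sets of Hsd17b7 were split, 2 of 4 changing in the called direction, and with their mean in limma it was at 0.06 and not called (adjusted p = 0.566). Quantile normalization also ended both calls, with Lss at 0.19 (adjusted p = 0.106) and Hsd17b7 at 0.27 (adjusted p = 0.0572). Pmvk was the exception in the branch: it read 289.8 to 442 (median 403) in forced air and 190.1 to 277 (median 218) in room air, a change of -0.74, SE 0.13, adjusted p = 5.35e-05, with every room-air array below every forced-air array. The other 7 genes were not called, among them Hmgcs1, at 1359 to 1743 (median 1564) in room air and a change of 0.21, SE 0.08, adjusted p = 0.0782, and Idi1, the isopentenyl diphosphate isomerase, at 0.26, SE 0.16, adjusted p = 0.303. Mvk, the mevalonate kinase, and Nsdhl, a sterol dehydrogenase, had log2 changes of -0.08 and 0.03, and neither was called in any comparison, over changes of -0.11 to 0.15 and -0.12 to 0.11. The late enzymes Tm7sf2, Ebp and Sc5d, of which the first 2 were lower than in smoke, were at -0.01, 0.03 and 0.11 against forced air.

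Room-air replicate 4 was the highest of its group for 11 of the 17 sterol-branch genes. Without it the log2 changes were 0.47 for Sqle, 0.47 for Fdft1, 0.44 for Fdps and 0.36 for Mvd, all still called. The sample titles end in numbers that fall into 3 ranges, whose meaning the labels do not give, and within the 2 ranges that hold both groups the sterol median was 0.33 (2 room-air and 4 forced-air arrays) and 0.24 (2 and 2). Sqle differed by 0.53 and 0.43 and Fdft1 by 0.58 and 0.46 within those ranges. Other cell types moved between these groups too, where 9.81% of all genes were called higher. Of 7 lymphocyte markers 5 were higher, with summed signals of 1351 to 3950.5 in forced air and 2915 to 4074 in room air. So were 4 of 5 neutrophil markers, with 1811 to 3206 and 3871 to 4226. The B cell receptor chains Cd79a and Cd79b changed by 1.08 and 1.17. None of these markers was at 0 in either group, and their part in the sterol result was not tested.

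Among the regulators, Srebf1 and Stard4 were higher in room air than in forced air. Srebf1 read 174 to 242 (median 189) and 199 to 273 (median 246), a change of 0.28 (SE 0.09, adjusted p = 0.0224), lost without any 1 of 4 of the 12 arrays, over changes of 0.25 to 0.34. Stard4 read 292 to 367 (median 299) and 341 to 395 (median 378), a change of 0.24 (SE 0.08, adjusted p = 0.0474), lost without any 1 of 9 of the 12 arrays, over changes of 0.22 to 0.28, among them forced-air replicate 4. The ranges of both genes overlap between groups. Srebf2, at 411 to 519 (median 438) and 444 to 601 (median 479.9), was at 0.14, SE 0.07, adjusted p = 0.214. For Scap, at 216 to 279 (median 250.02) and 256 to 317 (median 278), it was 0.16, SE 0.08, adjusted p = 0.152. Neither Srebf2 nor Scap was called. Insig1, at 1586 to 2163 (median 1876) and 1895 to 2402 (median 2074), was at 0.16, SE 0.06, adjusted p = 0.0757, and was called without forced-air replicate 4, at 0.20, SE 0.06, adjusted p = 0.0224. Of the related sterol genes, none was higher and 1, the cholesterol exporter Abca1, was lower, at -0.23. Without forced-air replicate 4 Abca1 was at -0.19 and not called (adjusted p = 0.0812), and Mylip, a ligase that marks the LDL receptor for breakdown, was called higher, at 0.30.

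In the fatty acid branch, Elovl1, which elongates very long saturated chains, was higher in room air, at 1471 to 1704 (median 1517) in forced air and 1833 to 2056 (median 1931) in room air, with every room-air array above every forced-air array (log2 change 0.31, SE 0.07, adjusted p = 0.000574, and 0.31 without forced-air replicate 4, adjusted p = 0.00118). Acss2 was lower, at 273 to 390.2 (median 326) in room air (log2 change -0.43, SE 0.13, adjusted p = 0.0189), and its call was lost without forced-air replicate 4, at -0.21, or without room-air replicate 5 or 6. Fasn read 524 to 761 (median 599) in room air. With all arrays its change was 0.17, SE 0.16, adjusted p = 0.504, and without forced-air replicate 4 it was 0.48, SE 0.08, adjusted p = 3.39e-05, past the threshold. Of the related fatty acid genes 2 were lower, Dgat2 at -0.82 and Lpin1, a phosphatidate phosphatase, at -0.40. On forced-air replicate 4, the highest of all 53 arrays for both, Dgat2 read 881 against 238 to 277 on the other 5 arrays and Lpin1 801 against 484 to 726. Without it Dgat2 was at -0.53 (adjusted p = 0.00218) and Lpin1 at -0.33 (adjusted p = 0.0193), both still called. Adipocyte markers were lower in 2 of 10 cases with all arrays and in none without that array. Without forced-air replicate 4 the fatty acid branch had 2 genes higher and none lower, and the sterol branch 8 higher and 1 lower. Of all 15030 genes 1485 were then called higher and 759 lower.

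Against mice that smoked for the full 24 weeks, the room-air group had 8 of 17 sterol-branch genes called higher and 2 lower, against 9.12% and 9.07% of all genes. The median change was 0.17, beside 0.00 over all genes. Sqle, at 138.5 to 191 (median 165) in smoke, changed by 0.50, SE 0.07, adjusted p = 1.23e-06. Fdft1, at 239 to 312 (median 277) in smoke, changed by 0.46, SE 0.10, adjusted p = 0.000346. Every room-air array lay above every smoke array for both. Lss changed by 0.33, Msmo1 by 0.40 and Hsd17b7 by 0.45, and these 3 calls held without any 1 array. Hmgcs1 at 0.27, Idi1 at 0.49 and Fdps at 0.30 were called with all arrays. Those calls were lost without any 1 of 3 of the 12, 7 of the 12 and 7 of the 12 arrays, over changes of 0.24 to 0.33, 0.40 to 0.59 and 0.25 to 0.35. Ebp fell by 0.22 and Tm7sf2 by 0.27, the latter call lost without any 1 of 7 of the 12 arrays, over changes of -0.32 to -0.21. Insig1, at 1569.9 to 1899 (median 1681) in smoke, was higher in room air by 0.29, SE 0.06, adjusted p = 0.000432, and Stard4, at 265 to 329 (median 281) in smoke, by 0.33, SE 0.08, adjusted p = 0.00322. No fatty acid gene was called with all arrays, and 1 had an unadjusted p under 0.05, beside 4395 of all 15030 genes. Fasn read 464 to 549 in smoke and 524 to 761 in room air. The fit pools the spread over groups, so forced-air replicate 4 at 24 weeks widened the error of Fasn although neither group holds it. Other cell types moved between these groups. Alveolar macrophage markers were lower in 6 of 9 cases, with summed signals of 8848 to 11902 in smoke and 6475 to 7619 in room air, and dividing-cell markers in 7 of 7, with 1348 to 1782 and 803 to 1109. Neutrophil markers were higher in 2 of 5 cases, with 2189 to 3528 and 3871 to 4226, and lymphocyte markers in 2 of 7, with 2262 to 3828 and 2915 to 4074. Their part in the sterol result was not tested.

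In mice moved from smoke to forced air few members were called. Against the 24-week forced-air group, none of the 17 sterol-branch genes was higher and 1, Pmvk, was lower, where 1.46% of all genes were higher and 0.526% lower. Pmvk read 201 to 339.6 (median 243), a change of -0.50 (SE 0.13, adjusted p = 0.0308), lost without any 1 of 8 of the 12 arrays, over changes of -0.57 to -0.43. No regulator or fatty acid gene was called with all arrays, and the median changes were 0.02 for the sterol branch and -0.07 for the fatty acid branch, or 0.01 and 0.00 without forced-air replicate 4. At an unadjusted p under 0.05 there were 1 sterol-branch gene, 1 regulator and 3 fatty acid genes, beside 2351 of all 15030 genes. Sqle, at 163 to 207 (median 182), was at 0.15, SE 0.07, adjusted p = 0.325. For Fdft1, at 246 to 331 (median 283), it was 0.09, SE 0.10, adjusted p = 0.711, and for Msmo1, at 316 to 451 (median 409), 0.09, SE 0.11, adjusted p = 0.719. All 3 overlap the forced-air arrays.

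Against continued smoke, the forced-air cessation group was lower for the 4 enzymes Mvd, Tm7sf2, Ebp and Dhcr7, against 7.68% of all genes called higher and 7.45% lower. Mvd read 60.1 to 93.3 (median 77.7) in smoke and 40.6 to 71.7 (median 56.3) after cessation, ranges that overlap, with a change of -0.39, SE 0.10, adjusted p = 0.00412. Dhcr7 read 678 to 742 (median 720.4) and 440.5 to 627 (median 585), a change of -0.35, SE 0.09, adjusted p = 0.00368, with every cessation array below every smoke array. Ebp read 349 to 418 (median 379.9) and 280.2 to 330.1 (median 323), a change of -0.28, SE 0.06, adjusted p = 0.00110, with the same separation. Tm7sf2 read 74.7 to 111 (median 95.1) and 54.5 to 78.9 (median 69.1), a change of -0.38, SE 0.10, adjusted p = 0.00444, where the groups overlap. These 4 calls held without any 1 array and in every other alternative. Beside the 24-week forced-air mice, Dhcr7 in this cessation group had a log2 change of 0.05, SE 0.09, adjusted p = 0.832, a comparison that shares arrays with the smoke comparison. Of the related sterol genes Ch25h fell by 1.46 on the log2 scale below continued smoke, and in room air it fell by 1.47. No other member was called. Alveolar macrophage markers were lower than in continued smoke in 6 of 9 cases, with summed signals of 6568 to 7551 after cessation. Dividing-cell markers were lower in 7 of 7, with 692 to 1315, and endothelial markers higher in 3 of 8, with 4738 to 6292 in smoke and 5115 to 6397 after cessation. Their part in the 4 calls was not tested.

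The 2 cessation groups were also compared with each other, which sets room air against forced air after the same smoke. The sterol branch had 3 genes higher in room air and none lower, against 0.459% of all genes higher and 0.512% lower, with 15 of 17 changes above 0 and a median of 0.28, beside 0.01 for the fatty acid branch. Sqle changed by 0.37, SE 0.07, adjusted p = 0.00384. Fdft1 changed by 0.43, SE 0.10, adjusted p = 0.00899, and every room-air array lay above every forced-air cessation array for both genes. With the mean of its probe sets in place of the brightest, Fdft1 was at 0.30 and not called (adjusted p = 0.132). Dhcr7, at 0.37, SE 0.09, adjusted p = 0.0201, was separated in 5 of 6 arrays and lost its call without forced-air cessation replicate 4 or room-air replicate 1 or 4, over changes of 0.30 to 0.44. Within the 3 ranges of title numbers the sterol median was 0.25, 0.20 and 0.33, the last with 2 room-air arrays and 1 forced-air cessation array. No gene of the 9 marker lists was called between these groups, with median log2 changes of 0.54 for lymphocyte and 0.46 for neutrophil markers. No regulator or fatty acid gene was called with all arrays, and Fasn had a log2 change of 0.24, SE 0.16, adjusted p = 0.707. The fit pools the spread over groups, so the error of Fasn includes the spread from the forced-air array singled out above. Neither cessation group holds that array, so the lack of a Fasn call here does not by itself separate the branches. At an unadjusted p under 0.05 there were 2 regulators and 1 fatty acid gene, beside 11 sterol-branch genes and 1451 of all 15030 genes.

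**Figure D4:**
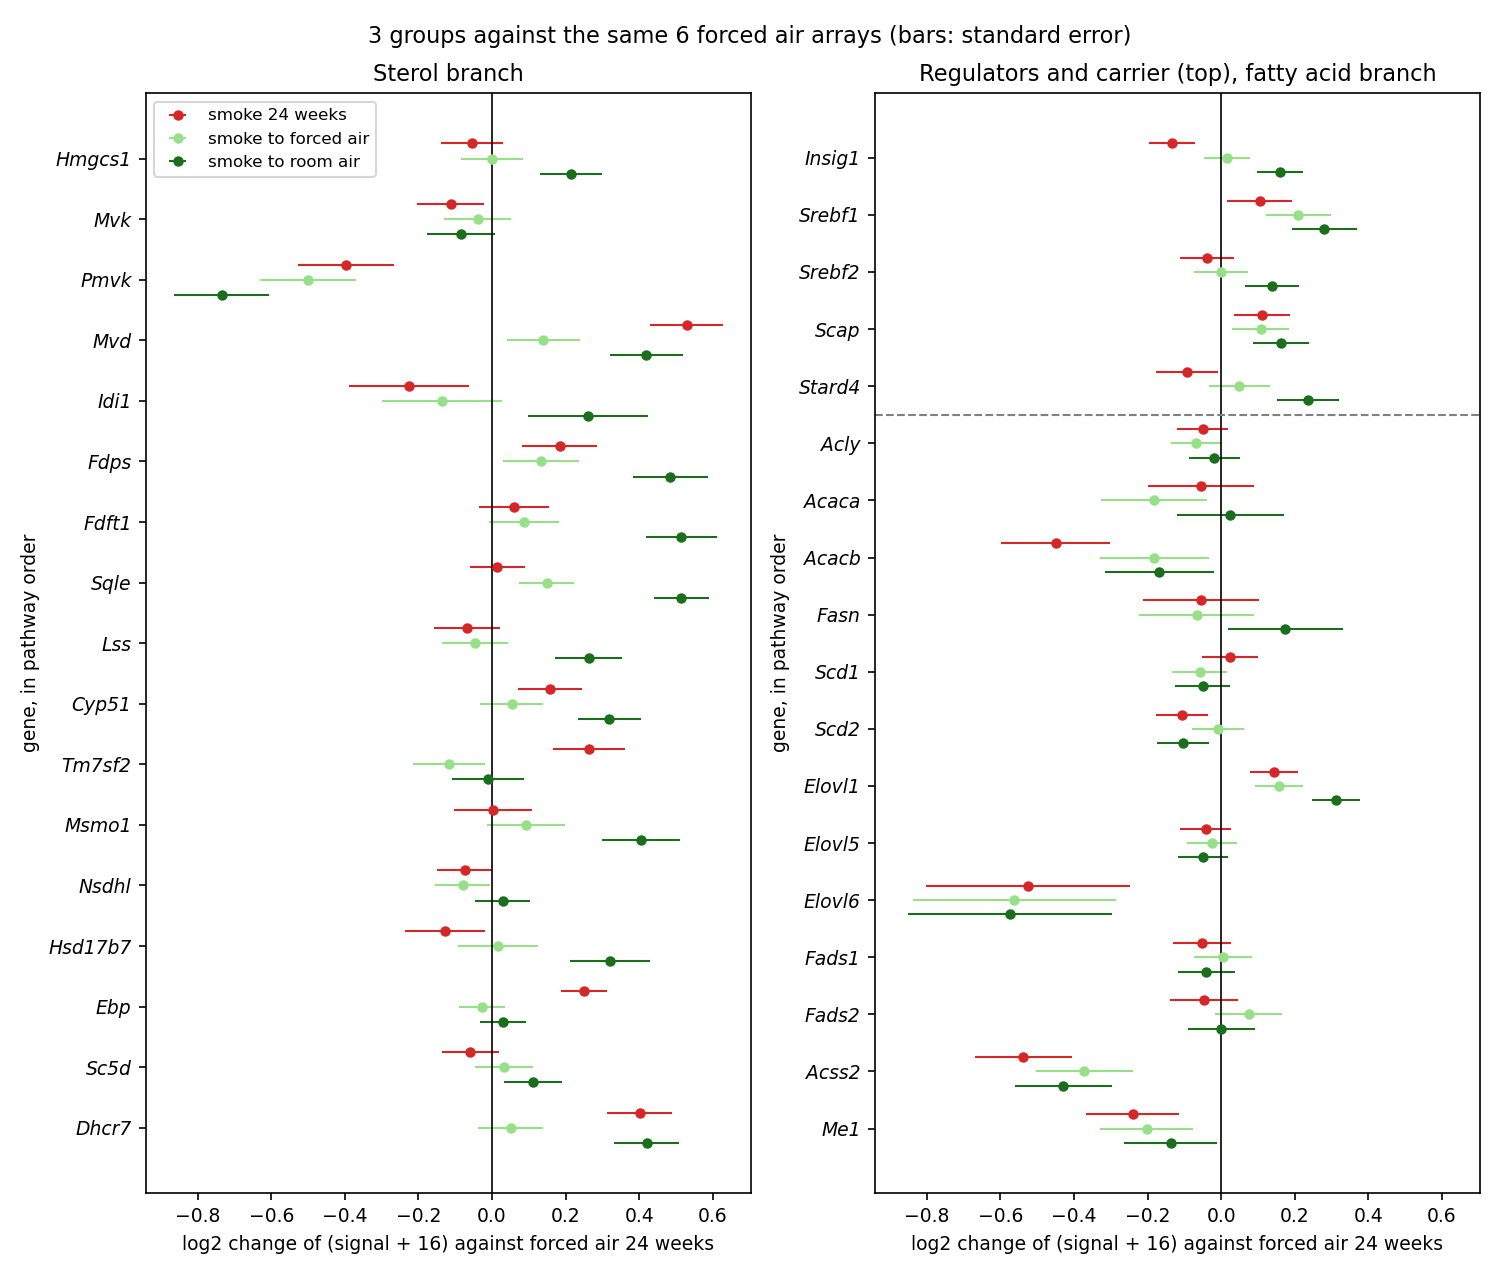
Log2 change (points, with bars of 1 SE) of each of the 35 genes against the 24-week forced-air group for smoke at 24 weeks and the 2 cessation groups, with the sterol branch on the left and the regulators and fatty acid branch on the right. The 3 series share the 6 forced-air arrays, and in room air Sqle reaches 0.51 and Fdft1 0.52 where the forced-air cessation group has 0.15 and 0.09.

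The forced-air groups were each compared with the untreated mice, to place the forced-air level. There is 1 untreated group, labelled with time 0, so the same 6 arrays serve all 3 comparisons, and the sham exposure cannot be told apart from the 2, 12 or 24 weeks that passed. At 2 weeks 2 sterol-branch genes were higher and 1 lower, against 10.9% of all genes higher and 12.4% lower. Ebp read 337 to 434 (median 361) in untreated mice and 442 to 522 (median 448) in forced air, with every forced-air array higher (log2 change 0.30, SE 0.06, adjusted p = 0.000471). Pmvk was higher at 0.35 and Dhcr7 lower at -0.24, calls lost without any 1 of 8 of the 12 and 9 of the 12 arrays, over changes of 0.24 to 0.50 and -0.27 to -0.20. Srebf2 read 337 to 476 (median 430.0) and 313 to 389.8 (median 342), a change of -0.27, SE 0.07, adjusted p = 0.00632. Stard4, at 252 to 356 (median 336) and 215 to 317 (median 272), changed by -0.24 (SE 0.08, adjusted p = 0.0309) and lost its call without any 1 of 6 of the 12 arrays, over changes of -0.31 to -0.18. Fads2, the delta-6 desaturase of polyunsaturated fatty acids, read 530.4 to 655 (median 598) and 658 to 881 (median 743), with every forced-air array higher (log2 change 0.34, SE 0.09, adjusted p = 0.00612). The Gapdh ratio spanned 1.501 to 1.97 in untreated mice and 1.61 to 2.08 in forced air, and with the 3′/5′ ratios as covariates Ebp alone of these 6 kept its call. Markers of alveolar type 1 cells were higher in 6 of 8 cases, with summed signals of 11794 to 13582 in untreated mice and 13390 to 18747 in forced air. Of 11 type 2 markers 3 were higher and 1 lower, with 19341 to 22324 and 19933 to 28453, and of 9 macrophage markers 3 were higher, with 6201 to 6737 and 6553 to 8006. Endothelial markers were higher in 2 of 8 cases, and lymphocyte markers lower in 2 of 7, with 1842 to 2784 and 1034 to 2691. The part of these cell types was not tested.

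At 12 weeks 1 member was called against untreated mice. Stard4 was lower, at 222 to 316 (median 255), with a log2 change of -0.31, SE 0.08, adjusted p = 0.0165, where 2.2% of all genes were higher and 3.55% lower, and without forced-air replicate 1 its change of -0.27 was not called. Sterol and fatty acid medians were -0.12 and 0.05. Fasn read 437 to 567 in untreated mice and 347 to 463 in forced air and was not called. Its error includes the spread from 24-week forced-air replicate 4, which neither group holds. Msmo1 had 12-week signals of 349 to 522 (median 412) in forced air and 379.7, 469, 394, 379.5 and 416 in smoke, Sqle 159 to 218 (median 198) and 169, 166, 197, 182 and 189, and Fdft1 294 to 411 (median 348) and 336, 309, 311, 309 and 331. None of these 3 was called at that time against either reference.

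At 24 weeks 6 sterol-branch genes were lower in forced air than in untreated mice and none was higher, against 4.7% of all genes higher and 9.4% lower. Fdft1 read 331 to 560.1 (median 359.7) in untreated mice, a change of -0.52, SE 0.10, adjusted p = 0.000185 to the 24-week level given above. Sqle read 198 to 249.9 (median 224) and changed by -0.43, SE 0.07, adjusted p = 6.43e-05. Every forced-air array lay below every untreated array for both genes. Msmo1, at 441 to 542 (median 485) in untreated mice, changed by -0.38, SE 0.11, adjusted p = 0.0115. Cyp51 changed by -0.31 (SE 0.09, adjusted p = 0.0109), Mvd by -0.34 (SE 0.10, adjusted p = 0.0173) and Ebp by -0.20 (SE 0.06, adjusted p = 0.0230). Untreated replicate 2 was the highest of its group for 21 of the 35 genes, 11 of them in the sterol branch, and had an actin 3′/5′ ratio of 2.88, the highest of all arrays. Without that array Cyp51, Mvd and Ebp were not called, at -0.25, -0.30 and -0.16, and the latter 2 were also lost without forced-air replicate 5, and Ebp without untreated replicate 1. Fdft1, Sqle and Msmo1 kept their calls without any 1 array. Without forced-air replicate 4 Pmvk was also called, higher, at 0.40.

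The levels of 3 of these enzymes in untreated and room-air mice are set side by side, since both differ from the same 24-week forced-air arrays. Sqle read 198 to 249.9 (median 224) in untreated and 209.8 to 284 (median 240.1) in room-air mice, and Fdft1 331 to 560.1 (median 359.7) and 347 to 460.0 (median 363). Msmo1 read 441 to 542 (median 485) and 429 to 641 (median 485). The ranges of the untreated and room-air groups overlap for all 3, and the 2 groups were not tested against each other. Elovl1 was the only fatty acid gene called lower in 24-week forced air than in untreated mice, at 1680.3 to 2305 (median 1842) in untreated mice (log2 change -0.28, SE 0.07, adjusted p = 0.00294). Without forced-air replicate 4 it was -0.28, adjusted p = 0.00628.

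The 2 branches were also summarised array by array. Averaged over its genes on each array and set relative to the untreated mean, the sterol branch lay at -0.24, -0.17 and -0.09 (lowest, median and highest array) in forced air at 24 weeks, -0.26, -0.11 and -0.04 in smoke at 24 weeks, -0.29, -0.19 and -0.07 in smoke to forced air, and -0.06, 0.01 and 0.22 in smoke to room air. The room-air arrays overlap the untreated arrays, at -0.08, -0.02 and 0.16, and lie above all forced-air arrays of 24 weeks. The fatty acid branch lay at -0.06, -0.03 and 0.76 in forced air at 24 weeks, where the highest value is replicate 4, and at -0.06, 0.03 and 0.11 in room air, with overlap between these groups. These means describe the arrays and carry no test.

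**Figure D5:**
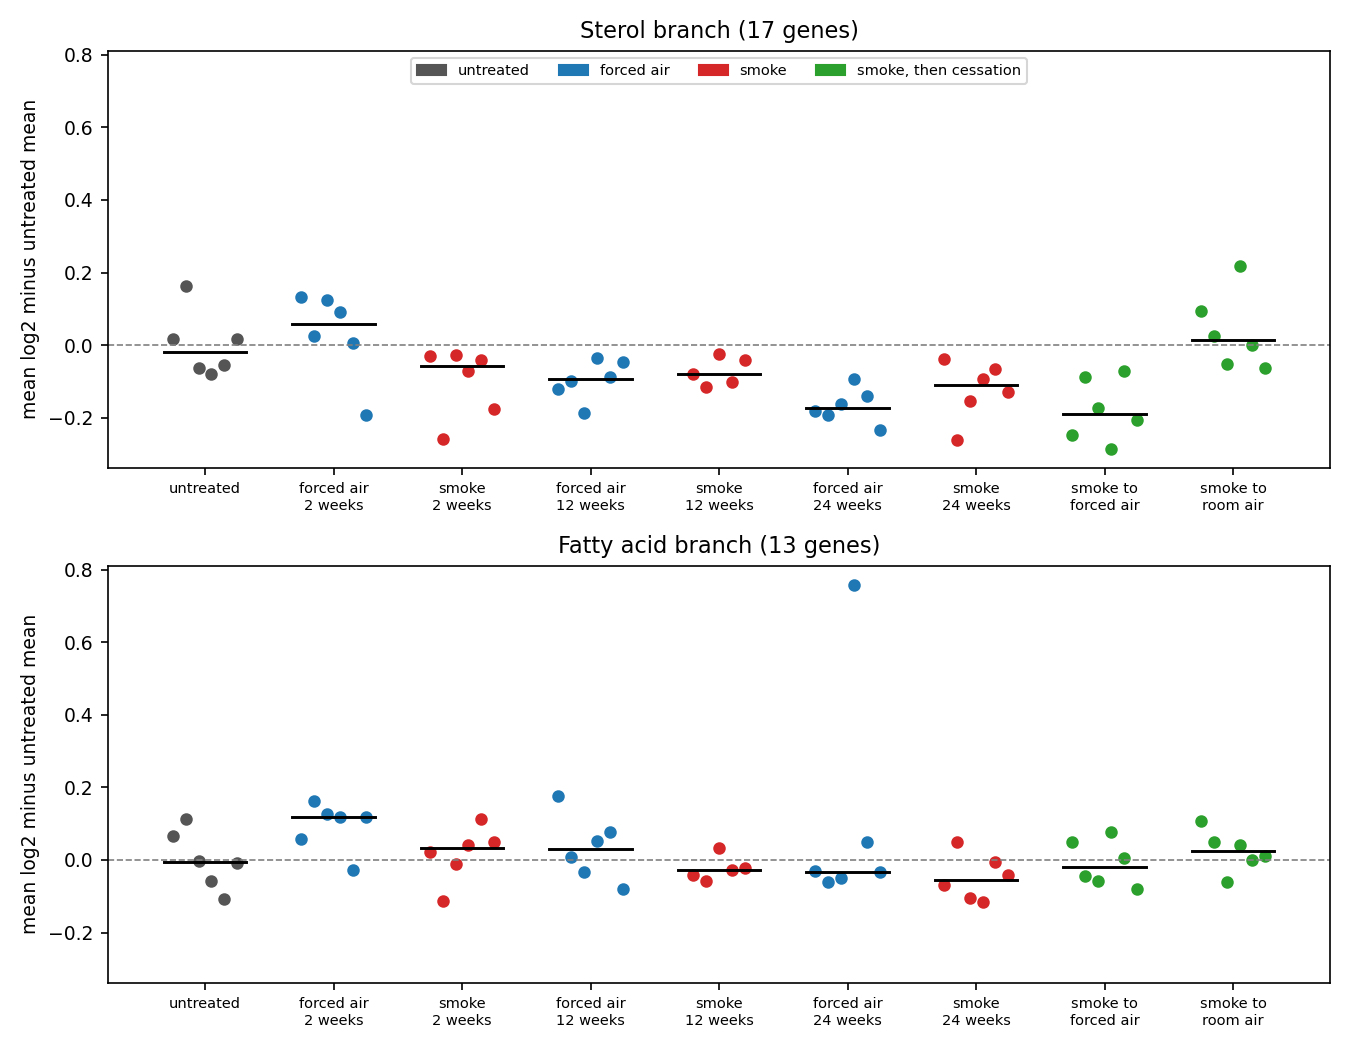
Mean log2 signal over the genes of each branch on every array (points), relative to the untreated mean, with a line at the median of each of the 9 groups, for 17 sterol-branch genes (top) and 13 fatty acid genes (bottom). The room-air arrays lie above all 24-week forced-air arrays in the sterol panel, and 1 forced-air array at 0.76 stands apart in the fatty acid panel.

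Within groups, some fatty acid genes moved together on single arrays. Forced air replicate 6 at 2 weeks, forced air replicate 1 at 12 weeks and smoke replicate 2 at 24 weeks, picked after their values were seen, were each the highest of their group for Acly, Scd1, Scd2, Elovl5 and Hmgcs1. Acly, the ATP citrate lyase that makes cytosolic acetyl-CoA, read 2954 against 2251 on the next highest array, 2392 against 2111 and 2623 against 2043 in the 3 groups. Scd1, the stearoyl-CoA desaturase that makes monounsaturated chains, read 4192 against 3216, 3637 against 2869 and 4085 against 3033. Its relative Scd2 read 2702 against 2007, 2514 against 2061 and 2321 against 1877. Elovl5, the elongase of polyunsaturated chains, read 3101 against 2514, 2849 against 2480.4 and 2852 against 2322. On the same arrays Sftpc read 4918 against 3352, 4504 against 2978 and 4235 against 2896, and the Gapdh 3′/5′ ratio was 2.08, 2.42 and 1.69 against 1.94, 1.95 and 1.54. The part of cell make-up or RNA quality in these values was not tested.

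Lastly, the fatty acid genes without a call over the 11 comparisons had these log2 changes with all arrays. Acly ranged over -0.11 to 0.09, Scd1 over -0.14 to 0.19 and Scd2 over -0.18 to 0.15. Elovl5 ranged over -0.16 to 0.08 and Fads1, the delta-5 desaturase, over -0.13 to 0.17. Acaca, Elovl6 and Me1, which were highest on forced-air replicate 4 at 24 weeks, ranged over -0.18 to 0.21, -0.57 to 0.62 and -0.24 to 0.11. Across all members 35 calls could be set beside other probe sets of the same gene, and in 29 every probe set changed in the called direction.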

How the data were processed

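Affymetrix signals of 53 arrays, 1 per lung sample, were deposited by the authors as MAS5 intensity values with a detection p-value for each of 45101 probe sets. MAS5 is named in the submitters' processing notes, with a version not given in the sources used here. All deposited signals have a trimmed mean of 150 on every array. Between 67.5% and 76.2% of probe sets were called present per array, and the number of arrays limits the precision. A probe set was kept (35615 in all) if its detection p fell below 0.05 on 50% or more of the arrays in any 1 group, 16 was added, log2 was taken, and each gene was represented by its brightest probe set (15030 genes). Group means were fitted in limma 3.58.1 (R 4.3.3) with moderated tests and Benjamini-Hochberg adjustment, on a script first tested on simulated data. Tables used pandas 2.3.3 and numpy 2.4.6 under Python 3.11.15, and figures matplotlib 3.10.9. Alternatives were quantile normalization, a value of 1 added, no detection filter, the mean of all probe sets, fits to the compared groups alone, 3′/5′ control ratios as covariates, the ranges of title numbers as a block, and each array left out. The Adipoq covariate was chosen after seeing the data. Title-number ranges were defined by an earlier session after it saw the data. The labels give no replicate numbers, and numbers inside the sample titles that recur between groups have no stated meaning. All 35 members are named. Values by sample are given for the members among the 6 largest changes of their list over the smoke and untreated comparisons, for Srebf1, Srebf2, Insig1, Scap, Fasn and Hmgcs1, and for Fdps, Tm7sf2, Ebp and others chosen after their values were seen. The members and lists were chosen with earlier results of these data known. Promoters were read from a RefSeq table.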

Additional observations from a re-analysis of the deposited data

Results flagged for a closer look

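Of 315 pairs of a member and a group, 39 held an array that stood apart from the rest of its group by Dixon's criterion, where chance alone flags about 5%. 7 of these lay on forced air replicate 4 at 24 weeks, which read 1586 for Fasn, 614 for Elovl6, 967 for Acss2, 1133 for Me1, 358 for Acaca, 365 for Acacb and 232 for Nsdhl. Its fat markers are given beside the fatty acid results, and their part was not tested.

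Forced air replicate 6 at 2 weeks was high for Hmgcs1 (1723), Acly (2954), Scd1 (4192) and Scd2 (2702), and low for Tm7sf2 (54.3) and Msmo1 (334). Forced air replicate 1 at 12 weeks was high for Pmvk (349), Acly (2392), Scd1 (3637), Scd2 (2514) and Elovl5 (2849). Smoke replicate 2 at 24 weeks was high for Acly (2623), Scd1 (4085), Scd2 (2321), Elovl1 (2055) and Elovl5 (2852). Untreated replicate 2 was high for Fdft1 (560.1), Cyp51 (438), Dhcr7 (701), Srebf1 (284) and Elovl1 (2305), and low for Stard4 (252).

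On other arrays 1 gene each stood apart. High values were Mvk at 74.4 in smoke replicate 3 at 2 weeks, Ebp at 522 in forced air replicate 4 at 2 weeks, Elovl6 at 124.5 in forced air replicate 2 at 2 weeks and Srebf2 at 448 in smoke replicate 3 at 12 weeks. Stard4 reached 367 in forced air replicate 5 at 24 weeks and Acaca 192 in smoke replicate 5 at 24 weeks. Fdps reached 253 in smoke to forced air replicate 5, Pmvk 277 in smoke to room air replicate 2 and Nsdhl 225 in smoke to room air replicate 4. Tm7sf2 was low, at 64.9, in smoke replicate 2 at 12 weeks.

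The effect of smoke differed between exposure times for 4 genes in limma's test of the difference. Against 2 weeks, the log2 change of Mvd was larger by 0.50 at 12 weeks and 0.62 at 24 weeks, that of Cyp51 by 0.45 and 0.42, and that of Ebp by 0.32 at 24 weeks. For Acss2 the difference at 24 weeks was -0.61.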

How the results depend on the processing

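Of 70 calls of a member in a comparison, 34 were kept in every alternative, among them Dhcr7 at all 3 smoke times, Mvd and Ebp in smoke at 24 weeks, and Sqle, Fdft1, Fdps, Msmo1 and Mvd in room air against forced air. Another 5 were lost only on leaving out arrays. The cause of the changes below was not tested. With the 3′/5′ ratios as covariates, called members went from 5 to 3 for smoke at 2 weeks, 5 to 3 at 12 weeks, 6 to 1 for forced air against untreated mice at 2 weeks and 4 to 1 for the 24 against 2-week effect, and the fatty acid median at 12 weeks from -0.11 to 0.031. Fits to the compared groups alone gave 2 for smoke at 2 weeks, 0 for smoke to forced air against forced air (1 in the reported fit), 0 for forced air against untreated mice at 12 weeks (1 reported) and 1 for the 12 against 2-week effect (2 reported). Without the detection filter smoke at 2 weeks had 3 and the 12 against 2-week effect 0. That effect had 1 with a value of 1 added, 0 with the mean of all probe sets and 0 with Adipoq as a covariate. Quantile normalization gave 7 for room air against smoke to forced air (3 reported) and 11 for forced air against untreated mice at 2 weeks. The block of title ranges gave 7 for the former and, against untreated mice, 5 at 12 weeks and 11 at 24 weeks (7 reported). The mean of all probe sets gave 5 at 12 weeks. Adipoq as a covariate gave 0 for smoke to forced air against forced air and 2 for the 24 against 2-week effect. It also ended the smoke calls of Insig1 and Acss2 at 12 weeks and of Pmvk and Acacb at 24 weeks. In room air against forced air it ended those of Lss, Hsd17b7, Stard4 and Acss2. Quantile normalization likewise ended the room-air calls of Lss, Hsd17b7 and Stard4 against forced air, and the smoke calls of Tm7sf2 and Insig1 at 12 weeks.

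Leaving out 1 array at a time, called members ranged from 1 (smoke replicate 2) to 6 (forced air replicate 6) for smoke at 2 weeks, 2 (smoke replicate 1) to 6 (forced air replicate 3) at 12 weeks, 0 to 1 for smoke to forced air against forced air, and 0 (forced air replicate 1) to 2 (untreated replicate 3) for forced air against untreated mice at 12 weeks. They ranged from 3 (untreated replicate 1) to 8 (untreated replicate 2) for forced air against untreated mice at 2 weeks. For the effects of 12 and 24 against 2 weeks they ranged from 0 to 3 and from 1 to 6.

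Directions turned for uncalled values of Fasn and Elovl6. For smoke at 24 weeks, Fasn went from -0.06 to 0.20 with Adipoq as a covariate and over -0.13 to 0.25 with arrays left out, and Elovl6 from -0.53 to 0.015 with Adipoq. For smoke to forced air against forced air, Fasn was 0.12 with Adipoq and -0.14 to 0.24 with arrays left out. For smoke to forced air against smoke, Fasn was 0.0030 with the block and -0.044 to 0.013 with arrays left out, and Elovl6 was 0.011 with the mean of all probe sets and -0.11 to 0.029 with arrays left out. For room air against smoke, Elovl6 was 0.0090 and -0.12 to 0.0036. For forced air against untreated mice at 24 weeks, Fasn ran from -0.19 without forced air replicate 4 to 0.19. No paired analysis was possible because the labels give no replicate numbers, and those inside the sample titles that recur between groups have no stated meaning.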
